A study of Mus musculus with 12 samples.

Results

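The data are the 4 J2 pulldown libraries of 12 libraries in the series, RNA recovered with the antibody J2: 2 from mice in which Kat2a and Kat2b had been deleted together (DKO, for double knockout) and 2 from control mice. The libraries were chosen by their titles, and no measured value entered the choice. All 4 came from epithelial cells of the proximal part of the small intestine of female mice aged 3 months, detached with EDTA over 50 minutes in the cold. That region comes from the extraction protocol in the labels, whereas the sample titles speak of epithelial cells of the whole intestine. The DKO mice carried the KAT2A/KAT2B DKO genotype of the labels and received tamoxifen intraperitoneally at 100 mg/kg on each of 4 days, and tissue was taken 2 days after the last dose. The control mice are labelled Control, and their injections held only the solvent of 10% ethanol and 90% corn oil. Deletion and exposure to tamoxifen therefore changed together and cannot be told apart. The alleles, the Cre driver and the strain are not given in the sources used here. Each of the 4 mice also gave a library of unselected RNA (input) and a library pulled down with K1, another antibody to double-stranded RNA, and these 8 libraries serve only for comparison.

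Long double-stranded RNA is bound by J2 and K1 with little regard to its sequence. In cells such RNA comes from paired transcripts, from inverted repeats and from the mitochondrial genome, which is copied from both strands. RIG-I (Ddx58), MDA5 (Ifih1) and LGP2 (Dhx58) sense it. RIG-I and MDA5 signal through Mavs, Tbk1, Ikbke and Irf3 to induce interferons. Interferons in turn act through Stat2 and Irf9, among others, on many effector genes, while ADAR1 (Adar) edits and loosens double strands. Kat2a and Kat2b encode related histone acetyltransferases, the catalytic subunits of the SAGA and ATAC complexes. A J2 library counts the RNA that came with the antibody, so a difference between DKO and control holds differences in transcript level as well as in pairing. In these preparations, fewer cells of a type and less RNA per cell cannot be told apart.

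The J2 libraries held 15359376 and 13308021 gene-assigned counts in control replicates 1 and 2, and 5826361 and 2691285 in DKO replicates 1 and 2. The DKO libraries were thus the shallower ones, and they also stood apart from each other: the Pearson correlation of log2(CPM + 1) across genes was 0.993 between the control replicates and 0.885 between the DKO replicates. CPM, the unit of every level below, are counts scaled to library size after adjustment by trimmed mean of M-values (TMM). A ratio of at least 4 between replicates was found for 9 genes in control and 880 in DKO. The 10 most abundant genes of a library took 6.75% and 7.19% of control counts but 28.8% and 30.0% of DKO counts. Reads aligned to several places, which were left out of gene counts, made up 5.54% and 5.98% of the listed reads in control and 15.8% and 29.5% in DKO. The part of depth, of these unplaced reads and of the spread between the DKO libraries in the results below was not tested. Markers of the labelled epithelium were present in all 4 libraries: the summed level of 25 enterocyte markers was 35024 and 36630 CPM in control and 47841 and 9936 CPM in DKO. The second DKO library was the low one of the 4. Of 28 leukocyte markers, 22 were abundant enough to test and 0 were called in either direction, and their summed level was 567 and 553 CPM in control against 1060 and 322 CPM in DKO. Of 29 markers of stroma, endothelium and blood, 13 were abundant enough to test, and their sum was 31.3 and 56.7 CPM in control against 240 and 76.3 CPM in DKO. The median log2 fold change of these 13 was 2.28, with 10 above 0, and the endothelial gene Tie1 was called higher. The endothelial genes Cdh5 and Kdr had 0 counts in all 4 libraries.

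The targeted genes were lower in both DKO libraries. Kat2b was at 72.3 and 65.4 CPM in control and 28.4 and 22.8 CPM in DKO. Its log2 fold change of -1.43 (SE 0.317) passed narrowly, with an adjusted p of 0.0472 in edgeR's quasi-likelihood test, but it did not pass with RLE scaling, DESeq2, limma voom, thinning to equal depth, a filter at a mean of 50 counts or a replicate block, or without either control library. Kat2a was at 21.0 and 20.9 CPM in control and 7.21 and 11.4 CPM in DKO, and its change of -1.18 (SE 0.403) did not pass (adjusted p = 0.104). Kat2a passed in 2 of 10 alternative settings that leave out no library. Counts over whole genes do not show which exons were removed. Of 27 tested members of the SAGA and ATAC complexes, Kat2b was the only one called, and the median of the 27 was -0.09.

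Of 13181 genes tested, 1609 were called at an adjusted p under 0.05, which is 12.2% of them. Of these, 796 (6.04%) were higher in DKO and 813 (6.17%) were lower, and the median log2 fold change of all genes tested was 0.03. With library totals in place of TMM scaling the split was 449 higher and 927 lower, with the median of all genes moved by -0.0987. The smallest change called was 1.35 on the log2 scale, and the lowest adjusted p was 0.0287, since the fit has 2 residual degrees of freedom. Before adjustment, 4670 genes (35.4%) had p under 0.05. The 2 DKO values lay above both control values in 4108 genes (31.2%) and below both in 4679 (35.5%). Each library had a large part in these counts: 177 genes were called without control replicate 1, 225 without control replicate 2, 8635 without DKO replicate 1 and 7726 without DKO replicate 2. In those fits the lone library is assumed to vary like the pair of the other group. In none of the 4 did a gene called in the full fit change direction. Below, a gene said to pass without either control library passed in both fits that leave out 1 control library.

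The 12 largest rises that met the rule for named genes were in Atg9b, Slfn4, Phlda3, Eno1b, Rasd1, Areg, Tat, Mx2, Ltf, Oas2, Scarna6 and Bst2. They mix interferon effectors (Mx2, Oas2, Bst2), a growth factor of the epidermal growth factor receptor (Areg), a target of p53 (Phlda3), an iron-binding antimicrobial protein (Ltf), an enzyme of tyrosine breakdown (Tat) and a small RNA of Cajal bodies (Scarna6). Atg9b (chr5:24384181-24392143, minus strand), a membrane protein of autophagy, had 56 and 312 counts in DKO against 3 and 0 in control. The ratio of group means was at least 269 times, with controls set to a floor of 3 counts per library. It rests mostly on DKO replicate 2, at 96.0 CPM beside 12.6 CPM in replicate 1. The exons of Atg9b overlap Nos3, and counting without strand cannot separate them. Slfn4 (chr11:83175186-83190216, plus strand), of the Schlafen family, was at 1.62 and 7.09 CPM in control and 312 and 1686 CPM in DKO. Its log2 fold change was 7.84 (adjusted p = 0.035). DKO replicate 2 held most of the Slfn4 signal, and both DKO values lay far above both control values. Part of its transcript, 22.6%, is also shared with Slfn3. Phlda3 (chr1:135766119-135769136, plus strand) went from 0.373 and 0.145 CPM to 32.4 and 53.5 CPM, with a log2 fold change of 7.27 (SE 0.632, adjusted p = 0.0287). Areg (chr5:91139599-91148432, plus strand) went from 2.92 and 5.43 CPM to 247 and 290 CPM, 64.2-fold higher (SE 0.547 on the log2 scale, adjusted p = 0.0287). For Phlda3 and Areg the 2 libraries of each group were close together and the groups far apart. Rasd1, a Ras-like protein induced by glucocorticoids, rose by 6.28 on the log2 scale, Tat by 5.98 and Ltf by 5.67. Eno1b rose by 7.07, but 92.2% of its transcript is near-identical to Eno1 and a pseudogene, so reads cannot be assigned to it with certainty. Scarna6 was the least even: it was at 0.559 and 0.507 CPM in control and at 4.28 and 51.1 CPM in DKO (log2 fold change 5.65, SE 1.29, adjusted p = 0.0495).

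The 12 largest falls were in Lrat, Prelp, Igip, Fras1, Paqr9, Slc5a4a, Selenop, Cyp2c55, Cyp1a1, Mmgt1, Lct and Zyg11a. Lrat (chr3:82892579-82903973, minus strand), the enzyme that esterifies retinol for storage and transport, had 1125 and 782 counts in control and 0 and 1 in DKO, at least 79.1-fold lower. Fras1, an extracellular matrix protein, had 283 and 518 counts in control and 2 and 1 in DKO, at least 34.4-fold lower, and Cyp1a1, a target of the aryl hydrocarbon receptor, had 270 and 244 against 2 and 1, at least 21.5-fold lower. In these 3 genes the DKO libraries were at or near 0 while every control library held at least 244 counts. Selenop (chr15:3268547-3280508, plus strand), the plasma selenium carrier, was at 2657 and 2949 CPM in control and at 70.5 and 40.6 CPM in DKO (log2 fold change -5.65, SE 0.860, adjusted p = 0.0301). Mmgt1 (chrX:56585512-56598069, minus strand), a subunit of the endoplasmic reticulum membrane complex, was at 80.0 and 56.4 CPM in control and 1.13 and 2.15 CPM in DKO (log2 fold change -5.41, SE 0.497, adjusted p = 0.0287). Lct (chr1:128284756-128328318, minus strand), the lactase of the brush border, was at 989 and 1364 CPM in control and 49.6 and 14.2 CPM in DKO (log2 fold change -5.20, SE 0.888, adjusted p = 0.0326). The groups were well separated for each of these genes. Prelp was at least 16.7-fold lower, Igip 13.6-fold, Paqr9 22.4-fold, Slc5a4a 17.9-fold and Zyg11a 18.2-fold, each a lower bound against a floor of 3 counts per library. Exons of Prelp, Fras1, Selenop, Cyp2c55 and Mmgt1 overlap other genes. Of the 24 genes, Slfn4, Oas2, Selenop and Lct did not pass without control replicate 1 or without control replicate 2, and Areg did not pass without control replicate 1. Fras1 did not pass in limma voom, and Scarna6 did not pass with library totals in place of TMM or among genes with a mean of at least 50 counts.

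**Figure D1:**
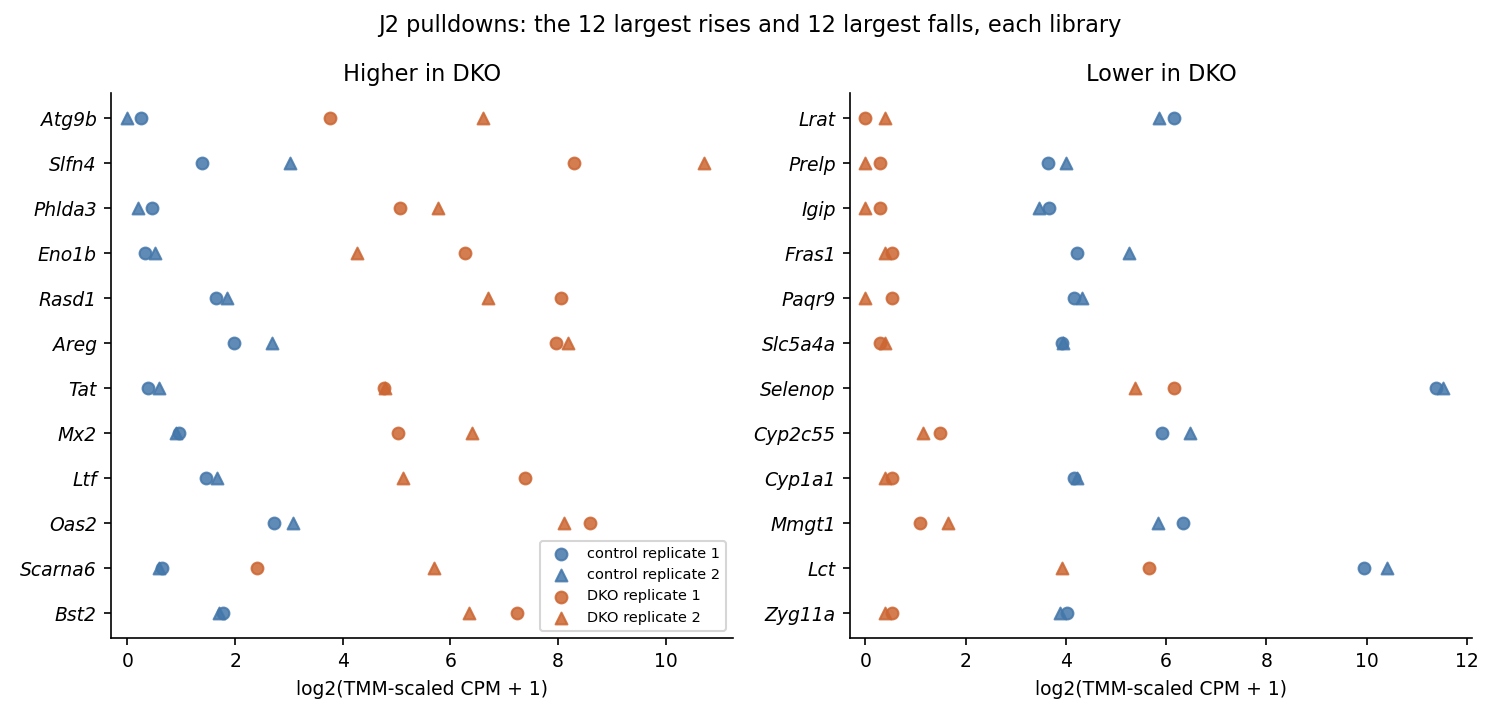
Level of the 12 genes with the largest rise (left) and the 12 with the largest fall (right) in J2 libraries, 1 point per library; the x axis is log2(TMM-scaled CPM + 1), blue points are control and orange points DKO, circles replicate 1 and triangles replicate 2. In every row both orange points lie on one side of both blue points; the widest gaps between replicates are in DKO, as for Scarna6 with 4.28 and 51.1 CPM.

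Interferon effector genes rose in number and by large factors. Of 50 listed effectors, 48 were tested, 28 were called higher and 0 lower, beside 6.04% called higher among all genes, and the list's median was 2.78 beside 0.03. Both DKO values exceeded both control values in 41 of the 48, beside 31.2% of all genes. Effectors near 0 in control, such as Mx2, met the count filter only through their DKO libraries. Part of these shares was thus set by the filter. Mx2, of a family of GTPases against viruses, is annotated as a polymorphic pseudogene, and the strain is not given. It was at 0.932 and 0.869 CPM in control and at 31.5 and 84.0 CPM in DKO (log2 fold change 5.98, SE 0.657, adjusted p = 0.0287). Oas2, which makes 2'-5' oligoadenylates when it binds double-stranded RNA, was at 5.59 and 7.38 CPM against 385 and 276 CPM (5.67, SE 0.505, adjusted p = 0.0287). Bst2, the tetherin that holds budding virus at the membrane, was at 2.42 and 2.24 CPM against 149 and 80.0 CPM (5.61, SE 0.494, adjusted p = 0.0287). In each of the 3, both DKO libraries were high. Ifit2, which restricts translation of viral RNA, was less even, at 2.92 and 3.91 CPM against 256 and 51.1 CPM (5.49, SE 0.909, adjusted p = 0.0318). Isg15, a ubiquitin-like modifier, was at 10.8 and 11.7 CPM against 392 and 141 CPM (4.56), and Usp18, which removes Isg15 from proteins and dampens interferon signalling, rose by 4.86. Rsad2 (viperin) was at 16.2 and 12.3 CPM against 366 and 259 CPM (4.45, SE 0.475, adjusted p = 0.0287). Ifit3 rose by 4.73, but 97.4% of its transcript is near-identical to Ifit3b. The smallest rise called was that of Sp100, a nuclear body protein, at 2.36. Ifit1 was at 2.20 (adjusted p = 0.118) and Cmpk2 at 3.02 (adjusted p = 0.122), and neither passed. Of those named, Mx2, Bst2 and Ifit2 still passed without either control library. Without control replicate 1 the list held 6 calls and without control replicate 2 it held 7, against 37 without DKO replicate 1 and 45 without DKO replicate 2. Across the other settings of the test, 27 to 38 effectors were called higher. The rise was present in unselected RNA as well: 45 of 48 were called higher in input, where 18.8% of 15088 genes were, and 43 of 48 in K1, where 13.1% of 12888 genes were.

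Promoters of these effectors were searched for the 10-base pattern GAAANNGAAA on both strands, the core shared by binding sites of interferon regulatory factors. The search covered 250 bases before to 50 bases after the start in RefSeq promoters of GRCm38.p6, which shares its coordinates with the submitters' mm10. The pattern was in 943 of 27025 promoters (3.49%), in 304 of the 9646 tested genes that have an entry (3.15%), in 43 of 531 genes called higher (8.10%) and in 14 of 601 called lower (2.33%). Of 37 effectors with an entry it was in 18 (48.6%), namely in 12 of 20 called higher (60.0%) and in 6 of 17 that were not (35.3%). Windows of 30 bases from 5 effectors that rose together are shown for their shared core; capitals mark the pattern, and each window reads 5′ to 3′ on the strand that holds it.
Bst2, chr8:71537583-71537612, minus strand: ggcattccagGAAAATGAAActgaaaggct
Ifit3, chr19:34583363-34583392, minus strand: accagaagagGAAAGTGAAActtaccactg
Isg15, chr4:156200871-156200900, minus strand: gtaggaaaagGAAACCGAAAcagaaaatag
Rsad2, chr12:26456553-26456582, plus strand: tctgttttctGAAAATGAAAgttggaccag
Oas3, chr5:120777715-120777744, minus strand: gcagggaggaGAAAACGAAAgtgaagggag
The pattern starts 130 bases before the gene start in Bst2, 156 in Ifit3, 72 in Isg15, 120 in Rsad2 and 75 in Oas3. In Bst2 and Isg15 overlapping matches, and in Ifit3 a separate one, lie in the same promoter. Such a match describes letters in the window and not a bound factor.

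Other genes of interferon signalling and of its targets were called in smaller shares, except the Schlafen genes. Among all genes, 6.04% were called higher and 6.17% lower, the background for each list of this paragraph. Of 22 tested genes of interferon signalling, 6 were called higher and 0 lower, with a median of 0.40. Stat2, a subunit of the factor that interferon activates, was at 35.4 and 28.1 CPM in control and 235 and 219 CPM in DKO (log2 fold change 2.84, SE 0.386, adjusted p = 0.0287). Irf5, a transcription factor of the interferon response, rose by 4.06, Socs3 by 2.82, Socs1 by 2.91 and Ifnar2, a chain of the type I receptor, by 2.30. Socs1 and Socs3 are feedback inhibitors of this signalling. Of 25 genes of antigen presentation on MHC class I, 5 were called higher and 0 lower, with a median of 1.27. H2-Q6, a non-classical class I chain, was at 12.4 and 6.88 CPM against 178 and 94.5 CPM (3.82, SE 0.537, adjusted p = 0.0287), and Nlrc5, the transactivator of class I genes, rose by 3.05. H2-Q6 shares 13.4% of its transcript with H2-Q7 and other genes. Of 15 guanylate-binding and immunity-related GTPases, 6 were called higher and 0 lower, with a median of 3.20. A called member near 0 in control met the count filter only through its DKO libraries. Part of that share was thus set by the filter. Gbp3 was at 3.92 and 2.39 CPM against 97.3 and 30.8 CPM (4.34, SE 0.696, adjusted p = 0.0308), and Gbp7 and Irgm1 rose by 3.52 and 2.20. Of 6 tested Schlafen genes, Slfn2, Slfn4, Slfn5 and Slfn8 were called higher. Without control replicate 1 only Irf5 and Gbp3 of the genes named here still passed, and without control replicate 2 only Gbp3. Socs1, Ifnar2, Irgm1 and Slfn8 lost their calls with library totals.

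The sensors of double-stranded RNA themselves gave 4 genes called higher and 1 lower among 15 tested, with a median of 0.86. Over all genes, 6.04% were called higher and 6.17% lower. Dhx58 was at 6.28 and 3.98 CPM in control and 140 and 40.9 CPM in DKO (log2 fold change 4.14, SE 0.711, adjusted p = 0.033). Zbp1, which binds Z-form nucleic acid and can trigger necroptosis, was at 83.6 and 43.0 CPM against 414 and 600 CPM (3.00, SE 0.574, adjusted p = 0.0382). Irf3 was at 17.7 and 17.7 CPM against 59.9 and 69.9 CPM (1.88, SE 0.307, adjusted p = 0.0316), and Ikbke rose by 2.23. Mavs, the mitochondrial adaptor between sensors and kinases, was the one that fell, from 197 and 194 CPM to 32.7 and 33.8 CPM (-2.56, SE 0.358, adjusted p = 0.0287). It was the most even of these changes, with replicates almost equal in each group. Ifih1 was at 70.1 and 64.5 CPM against 264 and 180 CPM, with a log2 fold change of 1.72 that missed the threshold (adjusted p = 0.0518). Ddx58 was at 71.7 and 70.8 CPM against 217 and 129 CPM (1.28, adjusted p = 0.0932), and Eif2ak2, the kinase PKR, was at 36.2 and 30.4 CPM against 62.6 and 61.9 CPM (0.90, adjusted p = 0.101). Tlr3 pointed the other way, at 38.2 and 32.1 CPM against 15.3 and 17.5 CPM (-1.10, adjusted p = 0.0795). Ifih1, Ddx58, Eif2ak2 and Tlr3 are named for their role, after their values were seen. Without control replicate 1 only Dhx58 of the 5 called genes still passed, and without control replicate 2 none did. Irf3 did not pass with library totals.

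Among 15 tested proteins that bind, edit or cut double-stranded RNA, 1 was called higher and 2 lower, and the median was -0.11. Over all genes, 6.04% were called higher and 6.17% lower. Adar was at 78.2 and 69.9 CPM in control and 335 and 315 CPM in DKO (log2 fold change 2.13, SE 0.403, adjusted p = 0.0374). Strbp, a double-strand-binding protein known from spermatid RNA, was at 160 and 164 CPM against 11.5 and 9.85 CPM (-3.92, SE 0.368, adjusted p = 0.0287). Dicer1, which cuts double-stranded RNA into microRNAs, was at 126 and 129 CPM against 41.7 and 47.4 CPM (-1.52, SE 0.328, adjusted p = 0.0445). Replicates were close for all 3 transcripts, and the groups did not overlap. Strbp still passed without either control library, and Adar and Dicer1 did not. The call for Dicer1 was also lost in 5 of 9 alternative settings that keep all 4 libraries, namely RLE scaling, library totals in place of TMM, thinning, a filter at a mean of 50 counts and a replicate block.

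**Figure D2:**
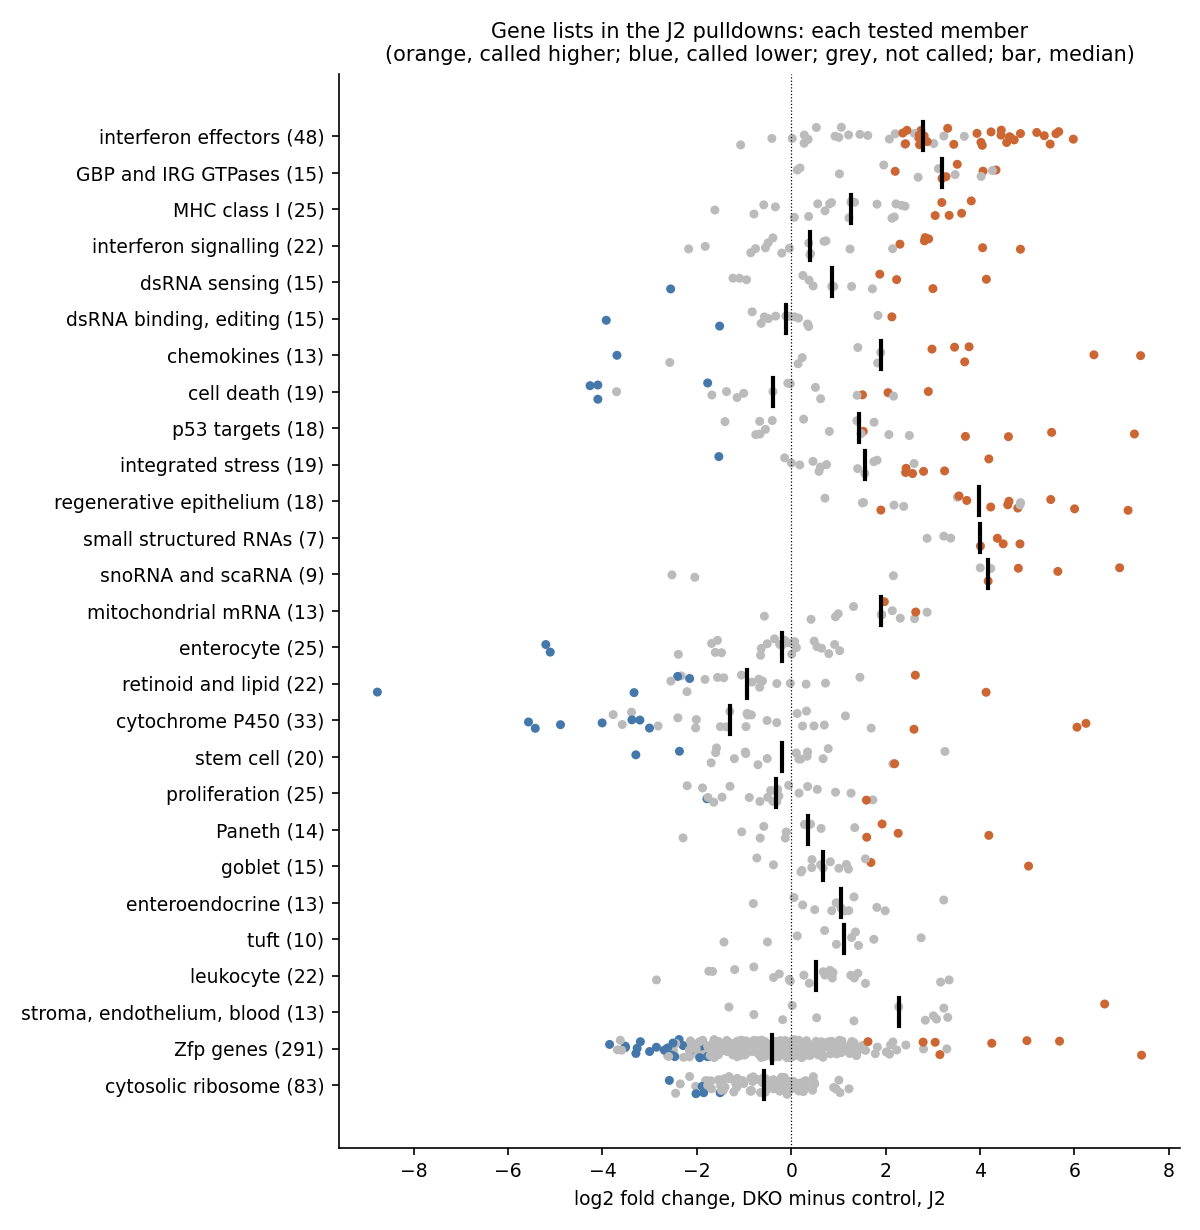
DKO minus control log2 fold change in J2 libraries of each tested member of 27 gene lists, 1 point per gene, with the number tested in brackets; orange points were called higher, blue points lower, grey points neither, and the black bar is the list's median. Interferon effectors, with 28 of 48 called higher, and regenerative epithelium, with 10 of 18, lie to the right of 0, while enterocyte markers spread around it with Lct and Cubn far to the left.

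Several small structured RNAs also rose in J2, with smaller changes in unselected RNA. Of 7 tested RNAs of the signal recognition particle, RNase complexes, telomerase and related particles, 4 were called higher and 0 lower in J2. The share called higher among all genes was 6.04%, and the median of the 7 was 4.01. Terc (chr3:96414437-96414859, minus strand), the template RNA of telomerase, was at 1.93 and 2.32 CPM in control and 28.2 and 68.0 CPM in DKO (log2 fold change 4.49, SE 0.576, adjusted p = 0.0287). Rn7s1 (chr12:69159295-69159594, plus strand), an RNA of the signal recognition particle, was at 5.34 and 7.02 CPM against 54.8 and 145 CPM (4.01, SE 0.591, adjusted p = 0.0299). Rn7s2 (chr12:69361182-69361481, minus strand) was at 8.70 and 10.4 CPM against 87.4 and 307 CPM (4.37, SE 0.723, adjusted p = 0.0318). Rn7s1, Rn7s2 and Rn7s6 match over all 300 bases, so the sharing of their reads is uncertain. Rmrp, the RNA of RNase MRP, was at 0.186 and 0.362 CPM against 3.61 and 12.9 CPM (4.85, SE 0.885, adjusted p = 0.0361), and its sequence is annotated in more than 1 gene. Rmrp met the count filter only through its DKO libraries, so its direction was in part set by the filter. DKO replicate 2 was above DKO replicate 1 for all 4 of these RNAs. In input Terc was also called higher, with a log2 fold change of 1.08 (adjusted p = 0.0194), Rn7s1 was at 0.50 (adjusted p = 0.0526) and Rn7s2 at 0.27 (adjusted p = 0.167), and in K1 they were 2.87, 4.33 and 4.55. Terc still passed in J2 without either control library, and the others did not.

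Of 147 small nucleolar and Cajal body RNAs with a name of the Snora, Snord or Scarna kind, 9 were abundant enough to test, so the list says little about the family. Of those, 4 were called higher and 0 lower, beside 6.04% of all genes called higher. Snora57 and Scarna6, near 0 in control, met the count filter only through their DKO libraries. Their direction was thus in part set by the filter. Snora23 (chr7:110046364-110046547, plus strand), which guides pseudouridylation, had 187 and 166 counts in control and 449 and 1833 in DKO, from shallower libraries (log2 fold change 4.81, SE 0.940, adjusted p = 0.0395). Scarna13 (chr12:105031075-105031349, minus strand) was at 3.17 and 4.13 CPM against 20.1 and 112 CPM (4.17, SE 0.887, adjusted p = 0.0434). Snora57 was at least 49.6-fold higher. DKO replicate 2 was the higher of the DKO libraries in each. Snora57 and Scarna6 still passed without either control library, Scarna13 only without control replicate 2, and Snora23 in neither case. The calls for Snora23, Scarna13, Snora57, Scarna6 and Rmrp were lost with library totals in place of TMM. In input Snora23 was at -0.09 and Scarna13 at 0.52, and neither passed.

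The small RNAs Snora23 and Scarna13 are printed to show how far a single small RNA pairs with itself. Capitals mark both strands of the longest uninterrupted helix in the minimum free energy fold by RNAfold, and sequences read 5′ to 3′ from the GRCm38 reference.
Snora23: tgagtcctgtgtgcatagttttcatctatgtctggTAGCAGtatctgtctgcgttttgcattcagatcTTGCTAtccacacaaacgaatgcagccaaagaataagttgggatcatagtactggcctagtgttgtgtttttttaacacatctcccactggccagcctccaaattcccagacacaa
Scarna13: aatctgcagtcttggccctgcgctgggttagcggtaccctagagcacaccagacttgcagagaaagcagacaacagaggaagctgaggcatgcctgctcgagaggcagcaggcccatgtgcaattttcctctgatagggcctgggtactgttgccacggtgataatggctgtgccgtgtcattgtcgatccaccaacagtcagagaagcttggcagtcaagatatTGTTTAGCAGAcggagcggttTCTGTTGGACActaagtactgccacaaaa
The predicted folds paired 58.7% of the 184 bases of Snora23 and 64.0% of the 275 bases of Scarna13. Their longest helices spanned 6 and 11 base pairs. These are predictions for the naked RNA, and what J2 bound in the lysate was not measured.

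Some more abundant noncoding RNAs did not pass the main test. Whether they pass depends on the test. Of 10 alternative settings that leave out no library, the fit of all 12 libraries among them, Rpph1, Malat1 and Gm26917 passed in 3 and Rn7sk in 1. Rpph1, the RNA of RNase P, took 0.394% and 0.514% of gene counts in control and 3.37% and 4.55% in DKO (log2 fold change 3.23, SE 1.95, adjusted p = 0.284), and 73.0% of it is shared with Ccnb1ip1. Rn7sk, an inhibitor of transcription elongation, took 0.265% and 0.304% in control and 0.286% and 4.38% in DKO (2.88, SE 1.76, adjusted p = 0.29). By share its DKO replicate 1 was at the control level, so the difference rests on replicate 2. Malat1, a long nuclear RNA, was at 746 and 765 CPM against 2957 and 8604 CPM (2.94, SE 1.06, adjusted p = 0.116). The most abundant gene of the DKO libraries, Gm26917, is a long noncoding RNA whose locus on chromosome 17 took 0.820% and 0.533% of control counts and 11.4% and 11.6% of DKO counts (4.24, SE 3.10, adjusted p = 0.368). For these abundant RNAs the standard error was wide even where replicates were close. By gene type, 7 of 15 tested miscellaneous small RNAs and 53 of 438 processed pseudogenes were called higher, and 0 and 6 lower. Over all genes, 6.04% were called higher and 6.17% lower.

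RNA of the mitochondrial chromosome took 2.20% and 2.77% of gene counts in control J2 libraries and 13.1% and 8.76% in DKO. The mitochondrial genome is transcribed from both strands over its whole length, and unprocessed transcripts of opposite strands can pair. Of its 13 messenger RNAs, 3 were called higher and 0 lower, beside 6.04% of all genes called higher, with a median of 1.91. Both DKO values exceeded both control values in 11, beside 31.2% of all genes. Mt-Atp8, a subunit of ATP synthase (chrM:7766-7969), was at 4.97 and 7.17 CPM in control and 46.0 and 29.5 CPM in DKO (log2 fold change 2.64, SE 0.427, adjusted p = 0.0311). Mt-Co3, a subunit of cytochrome oxidase, was at 47.2 and 61.9 CPM against 262 and 166 CPM (1.97, SE 0.431, adjusted p = 0.0459). Mt-Nd3, a subunit of complex I, was at 3.48 and 4.71 CPM against 15.8 and 15.1 CPM (1.91, SE 0.415, adjusted p = 0.0449). All 3 were separated between groups, but mt-Co3 and mt-Nd3 have near-identical copies in the nuclear genome, and the call for mt-Nd3 was lost with library totals, with limma voom and after thinning to equal depth. None of the 3 passed without control replicate 1 or without control replicate 2. Mt-Nd5 was the most abundant messenger, at 7219 and 10012 CPM against 90956 and 35781 CPM, and its change of 2.88 carried an SE of 2.34 and did not pass (adjusted p = 0.414). It passed in 2 of 10 alternative settings that leave out no library. Its exon overlaps mt-Nd6, encoded on the other strand, and counting without strand cannot separate the 2 genes. Mt-Cytb and mt-Co1 did not share the rise, with changes of -0.57 (adjusted p = 0.517) and 0.42 (adjusted p = 0.816).

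The mitochondrial ribosomal RNA mt-Rnr1 (chrM:70-1024) was at 54.8 and 69.7 CPM in control and 962 and 478 CPM in DKO (log2 fold change 3.53, SE 0.614, adjusted p = 0.0336). Mt-Rnr2 was at 577 and 842 CPM against 14136 and 5607 CPM (3.80, SE 1.25, adjusted p = 0.0959). Mt-Rnr2 passed in 4 of 10 alternative settings that leave out no library. Both DKO libraries were high for each RNA. In input, by contrast, log2 fold changes were -1.20 for mt-Rnr1 (adjusted p = 0.094), -0.27 for mt-Atp8, -0.35 for mt-Co3 and -0.46 for mt-Nd3, while in K1 they were 4.37, 4.62, 3.48 and 3.12. Of the 13 messengers, 0 were called higher and 3 lower in input, where 17.1% of genes were called lower, and 11 were called higher in K1. Of 26 tested nuclear genes for mitochondrial transcription, RNA decay and processing, 0 were called higher and 2 lower, with a median of 0.15. The 2 lower are 7.69% of them, near the 6.17% of all genes called lower. Tfam, which packs mitochondrial DNA and starts its transcription, was at 18.5 and 16.7 CPM against 2.03 and 4.92 CPM (-2.37, SE 0.544, adjusted p = 0.0497). Tfb2m, the partner of mitochondrial RNA polymerase at promoters, was at 11.6 and 9.85 CPM against 2.03 and 2.15 CPM (-2.35, SE 0.463, adjusted p = 0.0397), with 48.5% of its transcript shared with another gene. Both calls were lost with library totals, with limma voom, after thinning and without either control library, and mt-Rnr1 did not pass without either control library.

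Whether the effect in J2 differed from that in input was tested in a joint fit of both kinds of library. Of 15923 genes tested, 432 (2.71%) were called, 123 (0.772%) with a higher and 309 (1.94%) with a lower DKO effect in J2. When the animal was added as a block, since the same 4 mice gave both kinds of library, 0 genes (0%) passed. The lowest adjusted p was then 0.0712, and 4074 genes had an unadjusted p under 0.05. Without control replicate 1 or control replicate 2 also 0 passed, and 6990 and 4517 passed without DKO replicate 1 and DKO replicate 2. The differences in the next sentences are therefore those of the fit without the block. Snora23 differed by 4.85 on the log2 scale (SE 0.905, adjusted p = 0.0424, and 0.0741 with the block), and Terc by 3.39 (SE 0.587, adjusted p = 0.0379, and 0.0712 with the block). Rn7s1, Rn7s2 and Rmrp differed by 3.47, 4.06 and 5.82. For mt-Rnr1 the difference was 4.76 (SE 0.835, adjusted p = 0.0385, and 0.0712 with the block), and for mt-Atp8, mt-Co3 and mt-Nd3 it was 2.93, 2.35 and 2.38. In each of these RNAs the J2 change exceeded the input change in that fit. Of the interferon effectors, 0 of 48 differed between J2 and input in this test. Irf3 differed by 1.74 (SE 0.307, adjusted p = 0.0385, and 0.0734 with the block), with an input change of 0.14.

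Of the genes with a lower DKO effect in J2, 307 were also tested within J2, and 276 of these are protein coding. Their median exon length was 6031 bases and the median transcript GC content 42.8%, beside 4258.5 bases and 49.7% over all genes tested. In K1, 303 of these genes were tested, and 212 were called in the direction of their J2 change. Their median log2 fold change there was -1.55, and 27.1% of all genes were called in K1. Mmgt1 differed by -4.13 (SE 0.544, adjusted p = 0.0291, and 0.0712 with the block), with -1.28 in input. Cdk6, a kinase of the cell cycle, was at 292 and 286 CPM in control J2 and 27.3 and 31.7 CPM in DKO J2 (log2 fold change -3.29), and its change in input was -0.38, a difference of -2.91. Zfp644, a zinc finger protein, was at 215 and 245 CPM against 21.6 and 18.5 CPM (-3.52), with -0.46 in input and a difference of -3.05. Zfp398 and Zfp120 differed by -2.22 and -3.09, Strbp by -2.79, Ccl28 by -2.71, Lrat by -5.32 and Igip by -4.58. Ccng1, a target of p53, was not called within J2 (-0.75, adjusted p = 0.296) but was 2.25 higher in input, a difference of -2.98. Replicates were close for Cdk6 and Zfp644 in both groups. Within J2, Cdk6, Zfp644 and Zfp120 did not pass without control replicate 1 or without control replicate 2.

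The same test was run against K1. In a joint fit of J2 and K1 libraries, 0 of 14285 genes (0%) were called, and 507 had an unadjusted p under 0.05. With the animal as a block 1 gene (0.007%) was called, higher in J2, and without DKO replicate 1 the count was 1228. A test that calls nothing does not show that the 2 antibodies gave the same result. Within K1 alone 3489 genes (27.1%) were called, 13.1% higher and 13.9% lower, and within input 5421 (35.9%).

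**Figure D3:**
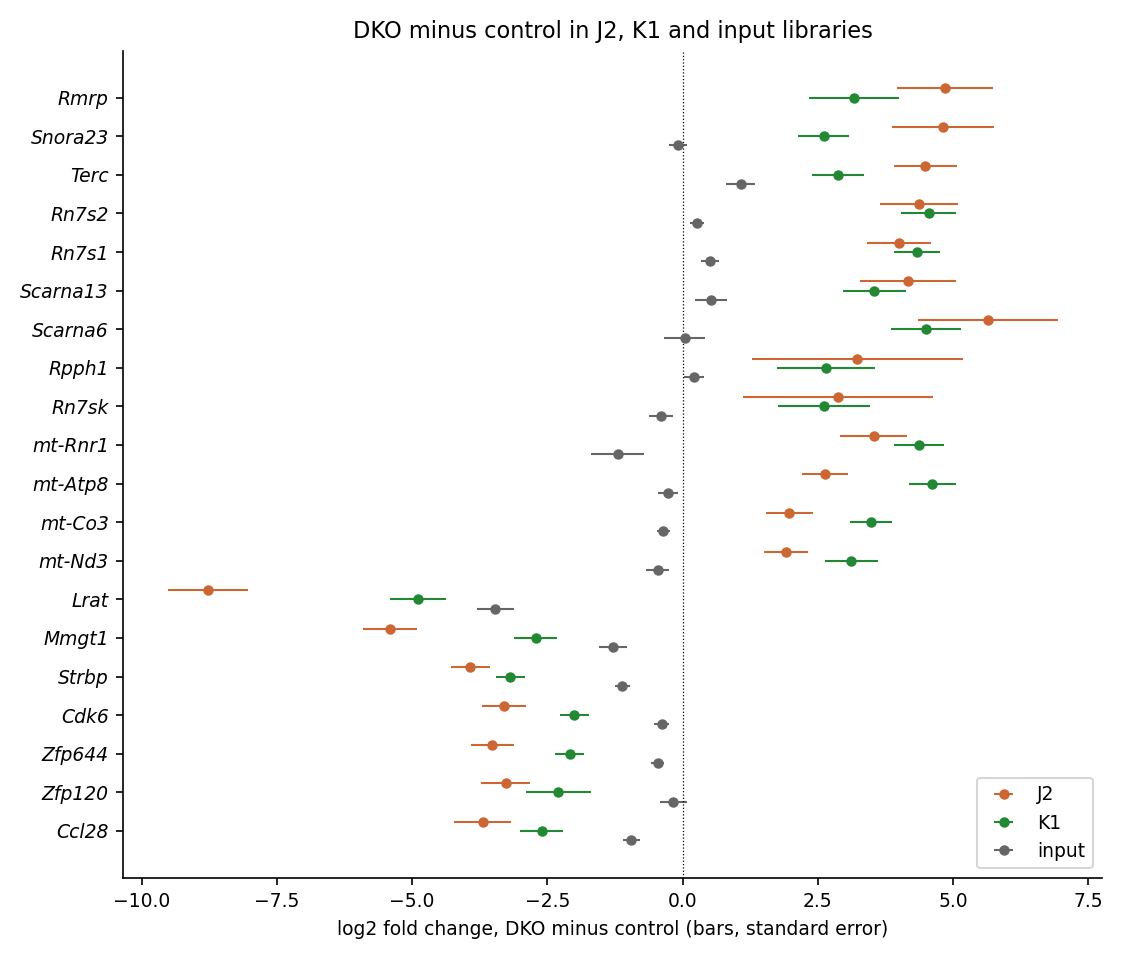
DKO minus control log2 fold change (x axis; bars are the standard error) of 20 named genes in separate fits of J2 (orange), K1 (green) and input (grey) libraries, 2 DKO against 2 control in each; Rmrp was below the count filter in input. Snora23 lies right of 0 in J2 with 4.81 and K1 with 2.61 and near 0 in input with -0.09, Terc lies right of 0 in all 3 with 1.08 in input, and messengers such as Cdk6 lie far left in J2 with -3.29 and near 0 in input with -0.38.

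Fold changes in J2 varied with the base composition, length and abundance of transcripts. When the tested genes were divided into 5 bins of equal size by GC content of the longest transcript, the median log2 fold change was -0.55 in the lowest bin and -0.30, 0.02, 0.26 and 0.61 in the following ones. Called falls made up 13.2% of the lowest bin and 1.63% of the highest, and called rises 2.66% and 10.9%. The slope was present in each DKO library: on the log2(CPM + 1) scale the medians ran from -0.74 to 0.55 in DKO replicate 1 and from -0.35 to 0.34 in replicate 2. In K1 they ran from -0.37 to 0.27, and in input from -0.05 to 0.06. By exon length the medians fell from 0.33 in the shortest bin to 0.24, 0.11, -0.12 and -0.34 in the longest. The shortest bin held 9.58% called rises and the longest 2.66%, while called falls were 3.57% and 9.61%. By mean CPM of the 4 libraries the medians were 0.07 in the lowest bin, then 0.37, 0.18 and -0.08, and -0.37 in the highest. In the highest bin the median was -0.08 in DKO replicate 1 and -0.86 in DKO replicate 2. Called rises were 8.46% of the lowest bin and 3.19% of the highest, and called falls 2.62% and 8.19%. Genes called higher had a median exon length of 3232.5 bases and a GC content of 53.3%, and genes called lower 5464 bases and 44.8%. Members called lower in the lists below belong to the long or AT-rich side in part. Among genes named above, the fallen Strbp and Dicer1 have exon lengths of 18616 and 16750 bases. The small structured RNAs that rose are short. Terc, Rmrp and Rn7s1 have 67.1%, 64.2% and 62.3% GC, and Snora23 has 43.5%. The part of composition, length and abundance in the calls above and below was not tested.

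**Figure D4:**
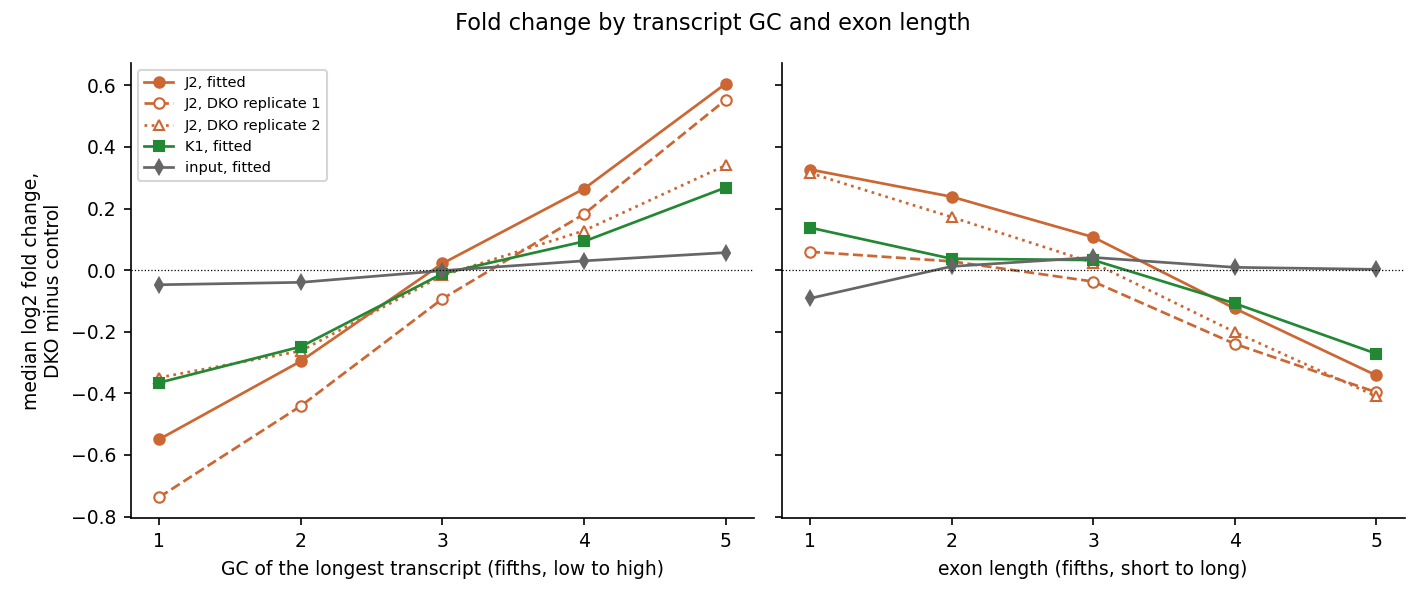
Median DKO minus control log2 fold change (y axis) of genes in 5 bins of transcript GC content (left) and of exon length (right); filled orange circles are the fitted J2 values, open orange symbols each DKO J2 library against the mean of the controls, green squares K1 and grey diamonds input. The J2 medians climb from -0.55 to 0.61 with GC and fall from 0.33 to -0.34 with length, and the input medians lie between -0.09 and 0.06.

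Gene families of zinc fingers and ribosomal proteins were called at shares near or below those of all genes. Of 291 tested genes with a Zfp name, 8 were called higher and 23 lower, together 10.7% beside 12.2% of all genes, with a median of -0.41 beside 0.03. The called falls included Zfp644, Zfp398 at 87.0 and 87.6 CPM against 7.44 and 10.5 CPM (-3.29, SE 0.359, adjusted p = 0.0287) and Zfp120 at 16.5 and 16.4 CPM against 1.58 and 1.85 CPM (-3.27, SE 0.451, adjusted p = 0.0287). Zfp937 was at least 7.38-fold lower. In the other direction Zfp365 had 2 and 1 counts in control and at least a 95.9-fold higher level in DKO, and Zfp385a, a cofactor of p53, rose by 4.99. Of 83 cytosolic ribosomal protein genes, 0 were called higher and 5 lower, which is 6.02% beside 6.17% of all genes called lower, with a median of -0.59. Rplp0 was at 659 and 653 CPM against 116 and 103 CPM (-2.58, SE 0.483, adjusted p = 0.0369), with processed copies covering 70.3% of it, and the other called falls were in Rpl35a (-2.02), Rpl9 (-1.89), Rpl10 (-1.86) and Rps4x (-1.51). Without either control library 0 of the 83 were called lower, against 35 without DKO replicate 1 and 55 without DKO replicate 2. Of 74 mitochondrial ribosomal protein genes, Mrpl40 was called higher (1.99) and 0 lower, and of 51 histone genes H3f3a (-2.10) and H2afv (-1.61) were called lower. H2afv lost its call in 6 of 9 alternative settings that keep all 4 libraries, H3f3a in limma voom and with library totals, and neither passed without either control library. Of 73 nuclear genes of oxidative phosphorylation, Cox7a2l (-1.52) was called lower and the median was -0.01. Of the zinc finger genes named, Zfp398, Zfp365 and Zfp385a still passed without either control library, and Zfp644, Zfp120 and Zfp937 did not.

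Markers of a regenerating, fetal-like epithelium were higher in DKO. Of 18 tested, 10 were called higher and 0 lower, beside 6.04% of all genes called higher, and the median was 3.97. Both DKO values exceeded both control values in all 18, beside 31.2% of all genes. Members near 0 in control, such as Gml2, Anxa3 and Clu, met the count filter only through their DKO libraries. For such members the direction was in part set by the filter, so these shares are partly built in. Gml2, of the Ly6 family, was at 0.186 and 0.652 CPM in control and 21.6 and 16.6 CPM in DKO (log2 fold change 5.50, SE 0.693, adjusted p = 0.0287), and its exons overlap Cyp11b1. Ly6a (Sca-1), the marker by which this state is often sorted, was at 0.497 and 2.97 CPM against 46.9 and 17.5 CPM (4.23, SE 0.970, adjusted p = 0.0497). Ly6c1 was at least 32.4-fold higher but shares 97.4% of its transcript with Ly6c2. Anxa3, an annexin, was at 0.559 and 0.796 CPM against 18.9 and 19.4 CPM (SE 0.480 on the log2 scale, adjusted p = 0.0287), with replicates close in both groups. Clu, which marks revival stem cells, was at 0.684 and 0.941 CPM against 16.2 and 5.23 CPM (3.72, SE 0.726, adjusted p = 0.0394). Il1rn, the interleukin 1 receptor antagonist, was at least 13.6-fold and Anxa8 at least 14.2-fold higher, S100a6 rose by 3.55 and Krt7 by 1.90. Of 16 members tested in input, all 16 were called higher, beside 18.8% of all genes. Ly6a and Anxa8 lost their calls in J2 with library totals in place of TMM. The number called in J2 was 1 without control replicate 1 and 7 without control replicate 2, against 15 without either DKO library. Gml2 passed in all 4 of those fits.

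Chemokines, p53 targets and stress genes included several large rises. Among all genes, 6.04% were called higher and 6.17% lower, the background for each list of this paragraph. Members near 0 in control, such as Cxcl1, Cxcl2, Cxcl5, Phlda3 and Gdf15, met the count filter only through their DKO libraries. For such members the direction was in part set by the filter. Of 13 tested chemokines, 6 were called higher and 1 lower, with a median of 1.90. Cxcl2, which attracts neutrophils, had 1 count in each control library and was at 3.15 and 24.3 CPM in DKO. By the group mean Cxcl2 was at least 68.0-fold higher, mostly from DKO replicate 2, and Cxcl5 was at least 20.0-fold higher. Cxcl10, induced by interferon, was at 2.18 and 1.45 CPM against 23.9 and 16.3 CPM (log2 fold change 3.46, SE 0.485, adjusted p = 0.0287). Ccl20, which attracts CCR6-bearing cells, rose by 3.68, Cxcl1 by 3.77 and Cxcl9 by 2.98. Ccl28, a mucosal chemokine, fell from 89.6 and 65.2 CPM to 8.34 and 3.38 CPM (-3.69, SE 0.527, adjusted p = 0.0291). Of 18 p53 targets, Phlda3, Gdf15, Plk2, Eda2r and Sesn2 were called higher and 0 lower, with a median of 1.44. Gdf15, a stress cytokine, was at 0.684 and 0.941 CPM against 21.4 and 54.2 CPM (5.52, SE 0.657, adjusted p = 0.0287). Of 19 genes of the integrated stress response, 6 were called higher and 1 lower, with a median of 1.56. Trib3, an inhibitor induced by this response, was at 5.16 and 5.65 CPM against 28.8 and 29.2 CPM (2.42, SE 0.356, adjusted p = 0.0299). Nupr1, Chac1, Phgdh, Ddit4 and Ppp1r15a rose by 4.19, 3.25, 2.80, 2.57 and 2.43, although 84.9% of the Phgdh transcript has near-identical copies. Cebpg fell by 1.53. Of the genes named here, Cxcl2, Ccl28, Phlda3, Gdf15 and Plk2 still passed without either control library, and Ccl20 only without control replicate 2. With library totals in place of TMM, Cxcl2, Cxcl1, Plk2, Sesn2, Nupr1, Chac1 and Ppp1r15a did not pass.

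Genes of cell death moved in both directions, with 3 called higher and 4 lower of 19 tested and a median of -0.39. Among all genes, 6.04% were called higher and 6.17% lower. The rises were in genes of necroptosis and of the extrinsic pathway. Ripk3, the necroptosis kinase, was at 16.7 and 11.6 CPM in control and 134 and 77.5 CPM in DKO (log2 fold change 2.90, SE 0.441, adjusted p = 0.0301). Mlkl, the pore-forming protein it phosphorylates, was at 14.2 and 11.2 CPM against 55.4 and 50.2 CPM (2.05, SE 0.328, adjusted p = 0.0307), and Casp8 rose by 1.51. The falls were in genes of the inflammasome and in gasdermins. Pycard, the inflammasome adaptor ASC, was at 163 and 138 CPM against 4.28 and 13.5 CPM (-4.10, SE 0.631, adjusted p = 0.0306), and Nlrp1b fell by 1.77. Gsdmc4 (-4.26) and Gsdmc2 (-4.10) also fell, and Gsdmc2 shares 75.7% of its transcript with Gsdmc3. Pycard still passed without either control library, the gasdermins only without control replicate 2 and the other 4 in neither case. Casp8 lost its call in 4 of 9 alternative settings that keep all 4 libraries, with adjusted p up to 0.098 by edgeR, and Nlrp1b and Gsdmc2 lost theirs with library totals, with limma voom and after thinning.

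Genes of absorptive function and of retinoid and lipid handling included some of the largest falls, while most enterocyte markers were not called. Of 25 enterocyte markers, 0 were called higher and 2 lower, with a median of -0.20. The 2 lower are 8% of them, near the 6.17% of all genes called lower. The 2 DKO libraries disagreed: on the log2(CPM + 1) scale the list's median was 0.49 in replicate 1 and -1.69 in replicate 2, and without DKO replicate 1 the fitted median was -1.79 against 0.58 without DKO replicate 2. In the bin of the most abundant genes of any kind, the median was -0.08 in replicate 1 and -0.86 in replicate 2. The 2 called were Lct and Cubn, the receptor for vitamin B12 with intrinsic factor, which was at 71.8 and 165 CPM in control and 5.63 and 0.923 CPM in DKO (log2 fold change -5.11, SE 0.880, adjusted p = 0.033). Apob, the lipoprotein of chylomicrons, was at 9024 and 8844 CPM against 5099 and 756 CPM and did not pass (-1.61, adjusted p = 0.43). Of 22 retinoid and lipid genes, 2 were called higher and 4 lower, beside 6.04% and 6.17% of all genes, with a median of -0.94. Beside Lrat, the falls were in Cd36, a fatty acid receptor, at 43.4 and 50.5 CPM against 6.08 and 3.08 CPM (-3.33, SE 0.451, adjusted p = 0.0287), Aldh1a1 (-2.41), which makes retinoic acid, and Dhrs3 (-2.15), which reduces retinal. Among the rises was Bco1 (4.13), which cleaves beta-carotene. Of 33 cytochrome P450 genes, 3 were called higher and 7 lower, beside the same 6.04% and 6.17%, with a median of -1.30. Cyp2c55 was at 59.4 and 88.3 CPM against 1.80 and 1.23 CPM (-5.57, SE 0.470, adjusted p = 0.0287), Cyp2c66 (-3.21) and Cyp2c29 (-3.00) also fell, and Cyp39a1 was at least 10.2-fold lower. Many of these falls had a counterpart in input, where the changes were -5.31 for Lct, -5.64 for Cubn, -3.46 for Lrat, -3.17 for Cyp2c55 and -1.80 for Cd36. Cubn, Lrat, Cd36 and Cyp2c55 still passed without either control library, and Cyp2c66 only without control replicate 1.

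Markers of other epithelial types were called in few members. Of 20 stem cell markers, Cd44 (2.19) was called higher and Olfm4 (-2.37) and Cdk6 lower, together 15% beside 12.2% of all genes. Of 25 genes of proliferation Rrm2 (1.59) was higher and Ccna2 (-1.79) lower, together 8%. Mki67, which marks cycling cells, was at 419 and 402 CPM in control and 88.8 and 134 CPM in DKO and did not pass (-1.88, adjusted p = 0.0557). In input 23 of the same 25 were called lower, beside 17.1% of all genes. Of 15 goblet cell markers Retnlb, an antimicrobial lectin-like protein, was at 0.249 and 0.507 CPM against 16.4 and 8.62 CPM (5.03, SE 0.674, adjusted p = 0.0287), and Spdef rose by 1.69. Of 14 Paneth cell markers 4 were called higher, beside 6.04% of all genes, namely Pnliprp2 (2.27), Mmp7 (1.93), Ang4 (1.60) and Nupr1, which is also a stress gene. Lyz1, the Paneth lysozyme, was at 1003 and 927 CPM against 202 and 192 CPM and missed the threshold (-2.29, adjusted p = 0.0509). None of 13 enteroendocrine and 10 tuft cell markers was called: Chgb, a granin, was at 1.81 (adjusted p = 0.053) and Dclk1, a tuft cell kinase, at -1.43 (adjusted p = 0.062). Dclk1 was the lowest of the 10 tuft markers, of which 8 had a log2 fold change above 0. Of 10 alternative settings that leave out no library, Lyz1 and Chgb passed in 7, Mki67 in 4 and Dclk1 in 2. The median was 1.05 for the enteroendocrine and 1.12 for the tuft list. Of 5 tested Reg lectins, Reg1 (-2.12) was called lower, while 3 had a log2 fold change above 0 and the median was 1.25. Tie1, an endothelial receptor, was the single called gene of the stroma, endothelium and blood list and was at least 39.8-fold higher, while Cdh5 and Kdr stood at 0. The median of the 13 tested members of that list was 2.28. Among 20 long noncoding RNAs, Meg3 was at least 25.6-fold higher and Dleu2 fell by 2.24. Without control replicate 1 none of the called genes of this paragraph passed, and without control replicate 2 only Retnlb and Tie1 did. Ccna2, Spdef and Dleu2 also lost their calls with library totals, with limma voom, after thinning and with a replicate block, and Cd44, Rrm2, Mmp7, Ang4, Nupr1 and Meg3 with library totals.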

How the data were processed

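Counts were deposited by the authors as 1 table per library. Per the submitters' processing notes, the tools were FastQC, STAR 2.7.10b, SAMtools 1.17, UMI-tools 1.1.4, HTSeq 2.0.2, DESeq2 1.40.1, edgeR 3.42.2 and deepTools 3.5.2, and the builds mm10 and GRCm38.p4; the role of each is not given in the sources used here. Per the labels, counting ignored strand, and libraries were made with random hexamers, rRNA depletion and molecular identifiers and read as pairs of 150 bp. No spike-in is described, so totals of RNA pulled down cannot be compared.

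The 48526 gene rows per library were used as deposited counts, without the rows of reads that fit no gene, several genes or several places; genes held 54.1% to 75.8% of listed reads in J2 libraries. Identifiers were matched to GENCODE M21 (GRCm38) without version for 48058 rows. DKO and control were compared with edgeR 4.0.16 (R 4.3.3): TMM scaling, filterByExpr with a minimum count of 10, glmQLFit and glmQLFTest, Benjamini-Hochberg adjusted p under 0.05. A gene could enter through a single group, so for genes scarce in the other group the direction was in part set by the filter. Differences between kinds of library were interaction terms in fits of 8 libraries, also with the animal as a block, since the labels' descriptions repeat 1 tag per replicate, read here as the animal, over the 3 kinds of library. Bounds divide the mean CPM of the higher group by the CPM of a floor of 3 counts per library in the other group. A bound can thus rest mostly on a single library. The bounds and the counts' precision cover counting error only. Folds and near copies used Python 3.11.15, ViennaRNA 2.7.2 and BLAST+ 2.17.0 (at least 97% identity over 100 bases). Scripts were tested on simulated data.

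Named genes are Kat2a and Kat2b, then the 12 largest rises and falls among called genes with a mean of at least 50 counts, a symbol not of the Gm, Rik, AC, AL or CT kind and groups that do not overlap, then the 10 most abundant genes, then list members, called ones by size first. Members and lists were chosen with earlier results of these data known. Alternatives were other scalings, DESeq2 1.42.0, limma 3.58.1 voom, other filters, thinning, a fit of all 12 libraries, a block and leaving out each library.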

Additional observations from a re-analysis of the deposited data

Results flagged for a closer look

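The DKO effect differed between J2 and input for 20 of the named genes in the joint fit without the animal as a block (edgeR adjusted p under 0.05). On the log2 scale the J2 effect was higher by 4.85 for Snora23, 3.39 for Terc, 3.47 for Rn7s1, 4.06 for Rn7s2 and 5.82 for Rmrp, all small structured RNAs. It was higher by 4.76 for mt-Rnr1, 2.93 for mt-Atp8, 2.35 for mt-Co3 and 2.38 for mt-Nd3, and by 1.74 for Irf3. The J2 effect was lower, with differences of -5.32 for Lrat, -4.58 for Igip, -4.13 for Mmgt1, -2.79 for Strbp, -2.71 for Ccl28, -2.91 for Cdk6, -3.05 for Zfp644, -2.22 for Zfp398, -3.09 for Zfp120 and -2.98 for Ccng1. With the block 0 genes passed, and the lowest adjusted p was 0.0712.

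Reads aligned to several places, which belong to no gene count here, made up 15.8% of listed reads in DKO replicate 1 and 29.5% in DKO replicate 2 of the J2 libraries, above the 5.54% and 5.98% of the controls. Which sequences they hold was not analysed here.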

How the results depend on the processing

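Of the genes called in J2 that an alternative tested (1136 to all 1609 of them), 0 changed direction, but the number called moved with the settings. DESeq2 called 2884 (1610 higher, 1274 lower), no filter 4273 (2223 and 2050), and the fit of all 12 libraries 5993 (3014 and 2979). Fewer were called among genes with a mean of at least 50 counts, 1042 with 437 higher, with thinning, 513 higher, and with library totals in place of TMM, 449 higher. Leaving out each library in turn gave 177 to 8635 genes called, 87 to 4126 higher and 90 to 4509 lower, with the low counts when a control was left out; the cause was not tested. For J2 minus input, library totals gave 672 calls in place of 432, the replicate block 0 and leaving out a library 0 to 6990. For J2 minus K1 these were 1 with the replicate block and 0 to 1228 on leaving out a library, in place of 0. Within J2 the replicate numbers do not mark shared animals; a replicate block gave 2263 calls, with 1492 of the 1609 among them. The deviations of same-numbered replicates correlated at -0.121, and the crossed pairing, chosen after seeing the data, gave 2635 calls (1344 higher, 1291 lower). Of the 155 genes tabulated for the text, TMM without mitochondrial genes changed 0 calls, RLE scaling lost 7, voom 23 and library totals 41. Of the called genes, 98 lower ones had both DKO libraries, and 109 higher ones both control libraries, at or under 3 counts, so the size of these changes is only a bound.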
